A study of Mus musculus with 9 samples.

Results

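The RNA of 40 genes that copy DNA was followed in murine Tc17 cells, CD8+ T cells of the kind that makes IL-17. The genes were taken by symbol from the RNA-Seq table of 41388 genes and comprise the MCM helicase (6 genes), the factors that license and fire origins (10), the sliding clamp and its loader (6), the DNA polymerases and primase (9), single-strand binding and Okazaki fragment joining (5) and the enzymes that supply nucleotides (4). The rule holds no threshold on the measured values, but earlier results of these data were known when the genes were listed. Naive CD62L+CD44-CD8+ T cells from lymph node and spleen of C57BL/6 mice, 8 to 12 weeks old according to the methods, were cultured for 2 days. All cultures received plate-bound anti-CD3 (5 µg/ml), anti-CD28 (0.5 µg/ml), IL-2 (50 U/ml), TGF-β (0.5 ng/ml), IL-6 (30 ng/ml), an antibody against IFN-γ and the solvent DMSO (0.2%). Ctrl cultures had nothing further, DMF cultures had 20 µM dimethyl fumarate, an ester of fumaric acid given in multiple sclerosis that reacts with glutathione, and DMF + GSH cultures had 20 µM DMF with 50 µM glutathione. Each group held 3 libraries with replicate numbers 1, 2 and 3. The labels place replicate 1 of every group in batch 1 and replicates 2 and 3 in batch 2. The labels do not say whether the replicate numbers stand for separate mice or pools, and the p-values measure the spread between these libraries only.

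Before a cell divides, it copies each chromosome once. In G1 phase the origin recognition complex, with CDC6 and CDT1, loads the ring-shaped MCM helicase onto DNA, and in S phase CDC45 and the GINS complex switch the helicase on. The polymerases then follow the unwound strands, held to them by the PCNA ring, while RPA covers single-stranded DNA and ribonucleotide reductase supplies the building blocks. Most of these genes are transcribed around the G1/S border under E2F transcription factors and are known for high expression in T cells that divide after activation through the antigen receptor.

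Depth ranged from 7671772 to 14511926 reads per library, and the lowest read number behind any member in any library was 127, for Fen1. The shallowest library, Ctrl replicate 3, also stood apart in myeloid cell markers. Their summed level (Lyz2, Csf1r, Cd14, Adgre1 and S100a8) was 227.5 normalized counts there, 4.16 in the lowest Ctrl library, and at most 23.2 in the DMF and 17.8 in the DMF + GSH libraries, and S100a8 was at 0 in all 9. The CD8 T cell markers (Cd8a, Cd8b1, Cd3d, Cd3e, Cd3g, Il17a and Il17f) summed to 23659 to 32349 normalized counts, whereas Cd4 did not exceed 4.40. Ctrl replicate 3 was the highest Ctrl library for 28 of the 40 genes and Ctrl replicate 2 the lowest for 28. With DMF + GSH, replicate 3 was the highest for 30 and replicate 2 the lowest for 22. The part of the myeloid signal in these differences was not tested, and counts without Ctrl replicate 3 are given beside the results.

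All 40 genes were well expressed and passed the minimum mean of 10 normalized counts. Together they took 0.855% to 0.984% of the reads of a library. Per kilobase of exon, averaged over the 9 libraries, the highest levels were those of Rrm2, the small subunit of ribonucleotide reductase, with 2023 normalized counts per kb, and of the helicase subunits Mcm3 (1890) and Mcm6 (1869). Mcm4 (1769), Mcm5 (1765) and Pcna (1750) lay just under them. The lowest per kb was Fen1, the flap endonuclease that trims Okazaki fragments, with 65.6. In its case 84.2% of the exon sequence is shared with genes on the opposite strand, mainly Gm10143, and for Gins2 67.3% is shared with Gse1. The labels and methods do not state whether reads were counted by strand, and the values of Fen1 and Gins2 are therefore uncertain. No other member had more than 15.1% of its exon sequence under another gene. Pseudogenes named after a member exist for Pcna (Pcna-ps1 and Pcna-ps2) and Tyms (Tyms-ps), which could have shared reads with them. Copies of members under other names were not searched for.

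Since these genes are known E2F targets, their promoters were searched for E2F letters. RefSeq (GRCm38.p6) gave a window from 250 bases before to 50 bases after the start for 33 of the 40 genes. The letters TTTCGCGC or TTTGGCGC stood on either strand in 10 of these 33 genes (30.3%) but in 251 of 27025 genes of the whole RefSeq table (0.929%). In lists described further on, they stood in 4 of 23 genes of G1/S control (17.4%) and in 4 of 41 other replication genes (9.76%). Of the MCM genes with a window, 4 of 5 held these letters. As a reference, the same letters read backwards without complement (CGCGCTTT or CGCGGTTT) stood in 0 of the 33 and in 0.995% of all genes. Every match is shown with the 8 bases on each side that the window held, read 5′ to 3′ along the gene, with the matched letters in capitals. In the Mcm5 site and the first Mcm6 site, matches on both strands overlap. The Mcm5, Mcm6, Orc1, Rfc3 and Pola1 sites lie before the RefSeq start and the others after it.
Mcm5 (chr8:75109348-75109375, plus strand): ccaagaacTTTCGCGCCAAAacgtccag
Mcm6, first (chr1:128359796-128359823, minus strand): cgtatgctTTTGGCGCGAAAagtgcgtg
Mcm6, next (chr1:128359737-128359760, minus strand): tggacgggTTTGGCGCgaagtagc
Mcm3 (chr1:20820263-20820282, minus strand): tgggaagtTTTGGCGCcaag
Mcm7 (chr5:138171852-138171875, minus strand): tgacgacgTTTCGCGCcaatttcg
Orc1 (chr4:108579419-108579442, plus strand): ggttagtgGCGCGAAAagttttct
Cdt1 (chr8:122568039-122568062, plus strand): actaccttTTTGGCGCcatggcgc
Rfc3 (chr5:151651203-151651226, minus strand): tcgcacgcTTTCGCGCtcgcggga
Pola1 (chrX:93632278-93632301, minus strand): atcacaggGCGCCAAAtgcactcc
Pole2 (chr12:69228165-69228188, minus strand): cggcggtgGCGCCAAAtcgcgaac
Lig1 (chr7:13278844-13278867, plus strand): caaagtgcGCGCGAAAtctgtgtg

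The promoter of Mcm6, which carries these letters, is shown beside that of Pold2, which does not and whose RNA differed the most with DMF. Both stretches end before the annotated gene.
Mcm6 (chr1:128359706-128359865, minus strand): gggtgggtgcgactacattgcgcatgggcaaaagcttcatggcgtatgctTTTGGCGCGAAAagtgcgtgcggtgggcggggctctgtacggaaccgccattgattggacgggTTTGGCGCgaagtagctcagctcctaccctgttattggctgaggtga
Pold2 (chr11:5878293-5878416, minus strand): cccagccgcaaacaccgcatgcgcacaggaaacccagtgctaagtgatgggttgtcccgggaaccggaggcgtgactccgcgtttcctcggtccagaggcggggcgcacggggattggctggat
The letters CCAAT stood in 63.6% of the 33 genes and in 41.1% of all genes, and the GC box letters GGGCGG in 75.8% and 38.2%, both read on either strand. The G2/M genes held CCAAT in 79.2% and the GC box in 83.3%, both above the share in the replication genes. The letters TTTGAA or TTCGAA, known from genes of G2 phase and mitosis, stood in 21.2% of the replication genes, close to the 21.7% of all genes, and in 70.8% of 24 G2/M genes used for comparison. A match describes the sequence and is not a bound site. The 10 genes with E2F letters had a median log2 fold change with DMF of 0.04 and the 23 without of 0.15, and 1 and 6 of them, respectively, are among the genes called higher with DMF, against 14.6% of all genes tested.

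The first comparison asks what DMF does to the RNA of replication genes in Tc17 cells that are being activated. Most of the 40 genes were slightly higher with DMF than in Ctrl, and 7 passed the test (limma, p adj under 0.05, all genes tested). These were Pold2, a subunit of DNA polymerase δ, the origin factors Orc1, Orc6 and Mcm10, Rpa2, a subunit of the single-strand binding protein RPA, the clamp Pcna and its loader subunit Rfc5. No member was called lower. Among all 11599 genes tested 14.6% were called higher and 13.3% lower. In this fit, which does not pair libraries by replicate number within batch 2, the 17.5% of members called higher lie near the background, whereas 0 of 40 were called lower. With replicate number fitted instead of batch, 15 of the 40 were called higher, against 23.7% of all genes. The log2 fold change was above 0 for 29 of the 40 members, against 50.6% of all genes, with a median of 0.12 over the members and 0.01 over all genes and a range from −0.12 for Tk1 to 0.56 for Pold2. No member reached the stricter threshold of p adj under 0.01 with a log2 fold change of 0.75 or more in either direction, which 2.89% of all genes passed. Libraries of these depths and 11599 genes were simulated without pairing and with the spread that is left once replicate numbers are fitted. In each run 200 genes, drawn from all those tested, were changed up or down with DMF. The same fit called 32% of genes given a log2 fold change of 0.3 and 87% of those given 0.75. In the data many more genes differed (1698 called higher and 1544 lower), so that these shares need not hold for the 40 members. In RNA of whole cultures, more cells in S phase and more of these RNAs per cell cannot be told apart.

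The replicate numbers paired the libraries, and when replicate number took the place of batch in the model (the block) 15 members were called higher and 0 lower, against 23.7% and 21.4% of all genes. The 8 further members were Mcm2, Mcm4, Mcm5, Cdc6, Gins2, Rfc3, Pola2 and Rrm2. Within replicate numbers, the median difference between DMF and Ctrl over the 40 members was 0.10 in replicate 1, 0.22 in replicate 2 and 0.04 in replicate 3 on the log2 scale. Replicate 1 alone forms batch 1, and in batch 2 the median was 0.12. In all 3 replicate numbers 23 members were higher and 3 were lower with DMF, whereas 34.3% of all genes were higher and 32% lower in all 3. Without the block, the number of genes called moved with single libraries, over all genes as among the members. Leaving out Ctrl replicate 1, 2 or 3 gave 1, 1 and 10 members called higher, against 2.85%, 5.25% and 17.2% of all genes. Leaving out DMF replicate 1, 2 or 3 gave 0, 4 and 1, against 0.362%, 16.3% and 4.01%, and 3 were called when DMF + GSH replicate 1 was dropped, against 12.4%. Under the block the number stayed between 8 and 18 when each library was left out in turn, against 18.5% to 25% of all genes.

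**Figure D1:**
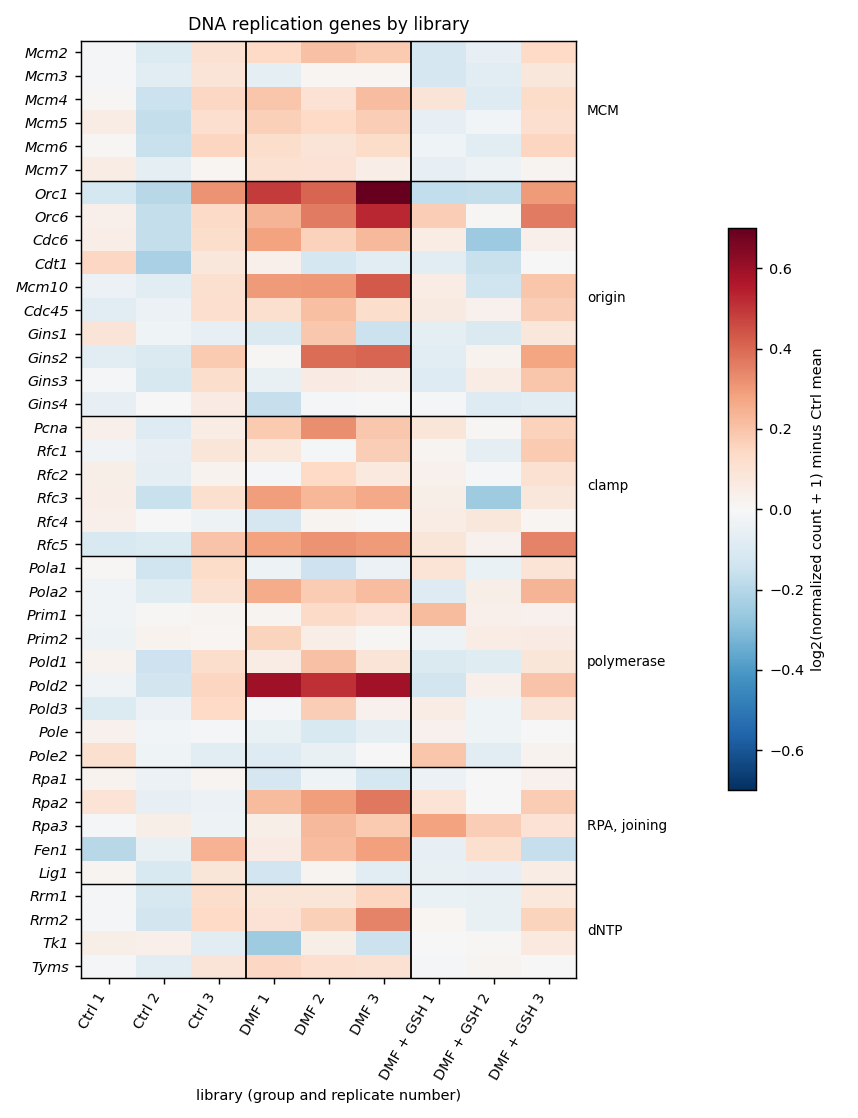
Each cell gives log2(normalized count + 1) of 1 gene in 1 library minus the mean of the 3 Ctrl libraries, with genes in rows by role and the 9 libraries in columns. Red runs through most DMF cells of Pold2, Orc1, Orc6, Mcm10, Rfc5 and Rpa2, and the replicate 3 libraries of Ctrl and of DMF + GSH are redder than their neighbours.

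MCM2 to MCM7 form the ring that unwinds DNA. In the fit with batch, none of the 6 helicase genes was called with DMF, against 14.6% of all genes higher and 13.3% lower. With the block 3 were called higher, against 23.7% of all genes. The log2 fold change was above 0 for 5 of the 6 (range −0.01 to 0.18), against 50.6% of all genes. Mcm2 (chr6:88883474-88898780, minus strand) measured 4921, 4625 and 5331 normalized counts under Ctrl (replicates 1, 2 and 3), against 5449, 5706 and 5621 under DMF and 4565, 4763 and 5444 under DMF + GSH. All DMF libraries lay above all Ctrl libraries, and the difference was 0.18 ± 0.08 (SE, limma, p adj = 0.121), with p adj = 0.0159 under the block. Mcm5 (chr8:75109569-75128439, plus strand) measured 6995, 6013 and 7320.5 normalized counts under Ctrl (replicates 1, 2 and 3), against 7573, 7429.7 and 7601 under DMF and 6497, 6668 and 7338 under DMF + GSH. Here too the groups did not overlap, and the difference was 0.16 ± 0.09 (SE, limma, p adj = 0.189), or p adj = 0.0309 with the block. Mcm4 (chr16:15623897-15637400, minus strand) measured 6049.7, 5435 and 6649 normalized counts under Ctrl (replicates 1, 2 and 3), against 6891, 6461 and 6995 under DMF and 6413, 5649.9 and 6594 under DMF + GSH. Its Ctrl replicate 3 exceeded DMF replicate 2, so that the groups overlapped, although DMF was the higher in every replicate number (0.17 ± 0.09 (SE, limma, p adj = 0.182), block p adj = 0.011). Mcm3 (chr1:20802968-20820312, minus strand), the most abundant of the ring per kb, measured 7101, 6802 and 7623 normalized counts under Ctrl (replicates 1, 2 and 3), against 6848, 7225 and 7240.4 under DMF and 6618, 6788 and 7580.2 under DMF + GSH. The highest value was that of Ctrl replicate 3 and the lowest that of DMF + GSH replicate 1, so that the groups overlapped, and the difference was −0.01 ± 0.07 (SE, limma, p adj = 0.903). For Mcm6 and Mcm7 the log2 fold changes were 0.11 ± 0.09 (SE, limma, p adj = 0.37) and 0.08 ± 0.06 (SE, limma, p adj = 0.323). The summed level of the 6 genes was 37611 ± 3039 normalized counts in Ctrl and 40586 ± 370.01 with DMF (SD, n = 3 each), and the highest Ctrl library, with 40502, lay within the DMF range.

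Of the 10 factors that load and start the helicase, 3 rose with DMF and 0 fell in the fit with batch, against the 14.6% and 13.3% of all genes. With the block 5 were called higher, against 23.7%. Orc1 (ENSMUSG00000028587, chr4:108579423-108614833, plus strand), the ATPase subunit of the origin recognition complex, measured 338, 320.5 and 458 normalized counts under Ctrl (replicates 1, 2 and 3), against 515, 488 and 606 under DMF and 326, 327 and 451 under DMF + GSH. All 3 DMF libraries were above all others, and the mean was 1.44 times that of Ctrl, a log2 fold change of 0.54 ± 0.16 (SE, limma, p adj = 0.0317). Orc6 (ENSMUSG00000031697, chr8:85299632-85308278, plus strand), a further subunit of the complex, measured 779, 677 and 836 normalized counts under Ctrl (replicates 1, 2 and 3), against 899, 981 and 1098 under DMF and 858, 765 and 980.1 under DMF + GSH. DMF lay above Ctrl without overlap, but DMF + GSH replicate 3 fell within the DMF range (0.38 ± 0.12 (SE, limma, p adj = 0.0376)). Mcm10 (ENSMUSG00000026669, chr2:4989714-5012791, minus strand), which works at the start of unwinding and is not part of the ring, measured 1465, 1435 and 1632 normalized counts under Ctrl (replicates 1, 2 and 3), against 1854, 1862 and 2029 under DMF and 1564, 1368 and 1728 under DMF + GSH. Its DMF libraries were above all others, with 1511 ± 106 in Ctrl and 1915 ± 98.7 with DMF (SD, n = 3 each) and 0.34 ± 0.09 (SE, limma, p adj = 0.0247).

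Cdc6 (chr11:98907801-98923940, plus strand), the loader that brings MCM to the origin, measured 1367, 1179 and 1445 normalized counts under Ctrl (replicates 1, 2 and 3), against 1610.2, 1484 and 1549 under DMF and 1376, 1112 and 1357 under DMF + GSH. The groups did not overlap, and the difference of 0.22 ± 0.10 (SE, limma, p adj = 0.109) was called under the block (p adj = 0.0061). Gins2 (chr8:120578633-120589304, minus strand), a GINS subunit, measured 525, 516 and 629 normalized counts under Ctrl (replicates 1, 2 and 3), against 558, 728 and 735 under DMF and 524, 564 and 672 under DMF + GSH. DMF replicate 1 lay among the Ctrl libraries, and the difference was 0.27 ± 0.10 (SE, limma, p adj = 0.079), or p adj = 0.00931 with the block, for a gene whose reads are uncertain. Cdt1 (chr8:122568015-122573554, plus strand), the partner of CDC6 and the most abundant origin factor per kb, measured 2129.5, 1644 and 2035 normalized counts under Ctrl (replicates 1, 2 and 3), against 1975, 1769 and 1821 under DMF and 1825, 1725 and 1918 under DMF + GSH. It had the lowest of its values in Ctrl replicate 2 and the highest in Ctrl replicate 1, and the difference was −0.05 ± 0.09 (SE, limma, p adj = 0.678). Cdc45, which joins the helicase at firing, had a log2 fold change of 0.15 ± 0.07 (SE, limma, p adj = 0.144). The GINS subunits Gins1, Gins3 and Gins4 lay at −0.02, 0.02 and −0.05, each within 1 SE of 0.

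**Figure D2:**
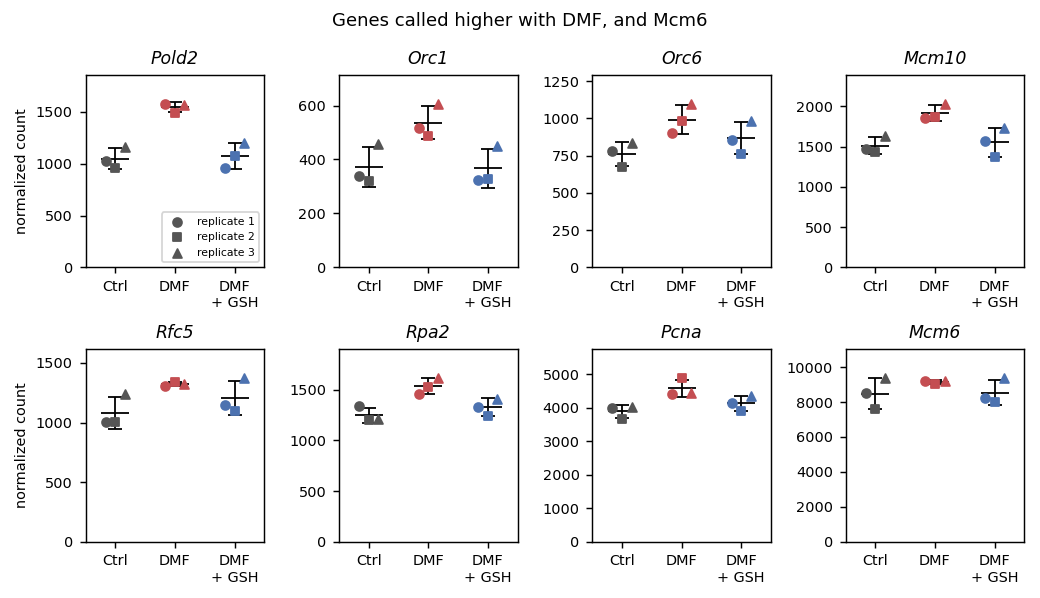
Normalized counts per library (points, with the shape giving the replicate number), mean and SD (bars) of the 7 genes called higher with DMF and of Mcm6, which was not called, with every vertical axis starting at 0. The DMF points of Pold2, Orc1, Mcm10, Rpa2 and Pcna lie above all other points, whereas those of Mcm6 lie within the spread of the other groups.

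Of the clamp and its loader, 2 of 6 genes rose and 0 fell in the fit with batch, against 14.6% and 13.3% of all genes. With the block 3 were called higher, against 23.7%. Pcna (ENSMUSG00000027342, chr2:132249162-132253314, minus strand), the ring that tethers the polymerases, measured 3988, 3659 and 4033 normalized counts under Ctrl (replicates 1, 2 and 3), against 4416, 4882 and 4436 under DMF and 4130.2, 3911 and 4343 under DMF + GSH. DMF lay above the other groups, most of all in replicate 2, and the difference was 0.23 ± 0.07 (SE, limma, p adj = 0.0405). Rfc5 (ENSMUSG00000029363, chr5:117378103-117389047, minus strand), a subunit of replication factor C that opens the ring, measured 1002, 1009 and 1237 normalized counts under Ctrl (replicates 1, 2 and 3), against 1309, 1342 and 1324 under DMF and 1144, 1100.3 and 1372 under DMF + GSH. Ctrl replicate 3 was well above the other Ctrl libraries but below DMF, DMF + GSH replicate 3 was the highest of all, and the adjusted p was just under 0.05 for a difference of 0.30 ± 0.10 (SE, limma). Rfc3 (ENSMUSG00000033970, chr5:151642756-151651242, minus strand), another loader subunit, measured 829, 722 and 869 normalized counts under Ctrl (replicates 1, 2 and 3), against 987, 946 and 968 under DMF and 826, 678 and 849 under DMF + GSH. The groups did not overlap, yet with all libraries the limma fit called the difference only with the block (0.27 ± 0.10 (SE, limma, p adj = 0.0703), block p adj = 0.00376). The remaining loader subunits Rfc1, Rfc2 and Rfc4 had log2 fold changes of 0.08, 0.07 and −0.03 (SE 0.08, 0.07 and 0.07).

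Of the 9 polymerase and primase genes, Pold2 was the only one called in the fit with batch (11.1%, against 14.6% of all genes called higher). With the block 2 were called higher, against 23.7%. Pold2 (ENSMUSG00000020471, chr11:5872180-5878292, minus strand), the accessory subunit of polymerase δ, which copies the lagging strand, measured 1028, 956 and 1160.4 normalized counts under Ctrl (replicates 1, 2 and 3), against 1576, 1491 and 1571 under DMF and 955, 1069.8 and 1201 under DMF + GSH. Every DMF library lay far above all others, with 1048 ± 104 in Ctrl and 1546 ± 47.6 with DMF (SD, n = 3 each), a ratio of 1.48 and a log2 fold change of 0.56 ± 0.10 (SE, limma, p adj = 0.00642). The other subunits of the same enzyme were not called in the fit with batch. The catalytic subunit Pold1 had a log2 fold change of 0.12 ± 0.09 (SE, limma, p adj = 0.33), and the accessory subunit Pold3 of 0.07 ± 0.08 (SE, limma, p adj = 0.555). The small subunit Pold4, which is not among the 40 genes and was added after its values were seen, lay in the opposite direction to Pold2, with −0.35 ± 0.17 (SE, limma, p adj = 0.14), and was called lower under the block (p adj = 0.00255), also when each library was left out. Pola2 (chr19:5940542-5964202, minus strand), the regulatory subunit of polymerase α, measured 1620.2, 1552 and 1772 normalized counts under Ctrl (replicates 1, 2 and 3), against 1969.9, 1863 and 1910.5 under DMF and 1547, 1694 and 1939.8 under DMF + GSH. DMF and Ctrl did not overlap, and the difference was 0.22 ± 0.09 (SE, limma, p adj = 0.0871), or p adj = 0.00957 with the block. The catalytic subunit Pola1 lay at −0.07 ± 0.08 (SE, limma, p adj = 0.519), and the primase genes Prim1 and Prim2, which make the RNA primers, at 0.08 and 0.07 (SE 0.07 for both). Pole, the catalytic subunit of the leading strand polymerase ε, measured 2719.8, 2629.8 and 2635 normalized counts under Ctrl (replicates 1, 2 and 3), against 2577, 2467 and 2549 under DMF and 2722, 2607 and 2659 under DMF + GSH. It was the only member whose DMF libraries all lay below all Ctrl libraries, by a difference of −0.07 ± 0.06 (SE, limma, p adj = 0.347), and its partner Pole2 lay at −0.05 ± 0.08 (SE, limma, p adj = 0.696).

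Rpa2 (ENSMUSG00000028884, chr4:132768332-132778752, plus strand), the middle subunit of RPA, measured 1334, 1200.2 and 1212 normalized counts under Ctrl (replicates 1, 2 and 3), against 1454, 1529 and 1612 under DMF and 1332, 1243 and 1412 under DMF + GSH. All DMF libraries were the highest, and the difference was 0.29 ± 0.08 (SE, limma, p adj = 0.0213). The large subunit Rpa1, the more abundant of the pair per kb (903 against 458), had a log2 fold change of −0.09 ± 0.06 (SE, limma, p adj = 0.282) and the small subunit Rpa3 of 0.15 ± 0.09 (SE, limma, p adj = 0.223). Lig1 (chr7:13277283-13311433, plus strand), the ligase that seals Okazaki fragments and the most abundant of its group per kb, measured 4681, 4285 and 4899 normalized counts under Ctrl (replicates 1, 2 and 3), against 4205, 4676 and 4372 under DMF and 4453, 4432 and 4776 under DMF + GSH. The 3 groups overlapped throughout (−0.06 ± 0.07 (SE, limma, p adj = 0.532)). Fen1 lay at 0.19 ± 0.13 (SE, limma, p adj = 0.302) on few reads.

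None of the 4 nucleotide genes was called in the fit with batch, against 14.6% of all genes higher and 13.3% lower. Rrm2 (chr12:24708241-24714146, plus strand) measured 5233, 4832 and 5806 normalized counts under Ctrl (replicates 1, 2 and 3), against 5666, 5915 and 6719 under DMF and 5316, 5089 and 5867 under DMF + GSH. DMF replicate 3 was the highest of all libraries, the DMF range overlapped with Ctrl replicate 3, and the difference was 0.21 ± 0.09 (SE, limma, p adj = 0.119), or p adj = 0.00293 with the block. The large subunit Rrm1 had a log2 fold change of 0.11 ± 0.08 (SE, limma, p adj = 0.315), thymidylate synthase (Tyms) of 0.12 ± 0.07 (SE, limma, p adj = 0.185) and thymidine kinase (Tk1), which salvages thymidine, of −0.12 ± 0.08 (SE, limma, p adj = 0.299), the lowest of the members. DMF and Ctrl libraries did not overlap for 15 of the 40 members that were higher and 1 that was lower with DMF, against 21.6% of all genes higher and 19.8% lower.

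Of the 7 calls, that of Pold2 was lost without DMF replicate 1 alone (p adj = 0.0574). Orc1 lost its call when replicate 1 or 2 of Ctrl was left out, and likewise replicate 1 or 3 of DMF or DMF + GSH replicate 1, with adjusted p-values up to 0.146, and Mcm10 and Rpa2 without each of the first 4 of these, up to 0.104 and 0.0997. Orc6, Rfc5 and Pcna remained called only without Ctrl replicate 3, DMF + GSH replicate 2 or DMF + GSH replicate 3, with adjusted p-values up to 0.151, 0.204 and 0.155 otherwise. With the block, all 7 were called in every such fit except Pcna without DMF replicate 2 (limma, p adj = 0.0559). edgeR and DESeq2 on the recovered reads called 6 of the 7 each, without Rfc5. With all libraries, no minimum, quantile normalization or a fit of the 6 libraries compared ended the calls of Pcna (p adj = 0.0808, 0.0559 and 0.0657) and Rfc5 (p adj = 0.0689, 0.0618 and 0.0517), and that of Rfc5 was also lost without the batch term (p adj = 0.0577) and at a pseudocount of 0.5 (p adj just over 0.05).

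**Figure D3:**
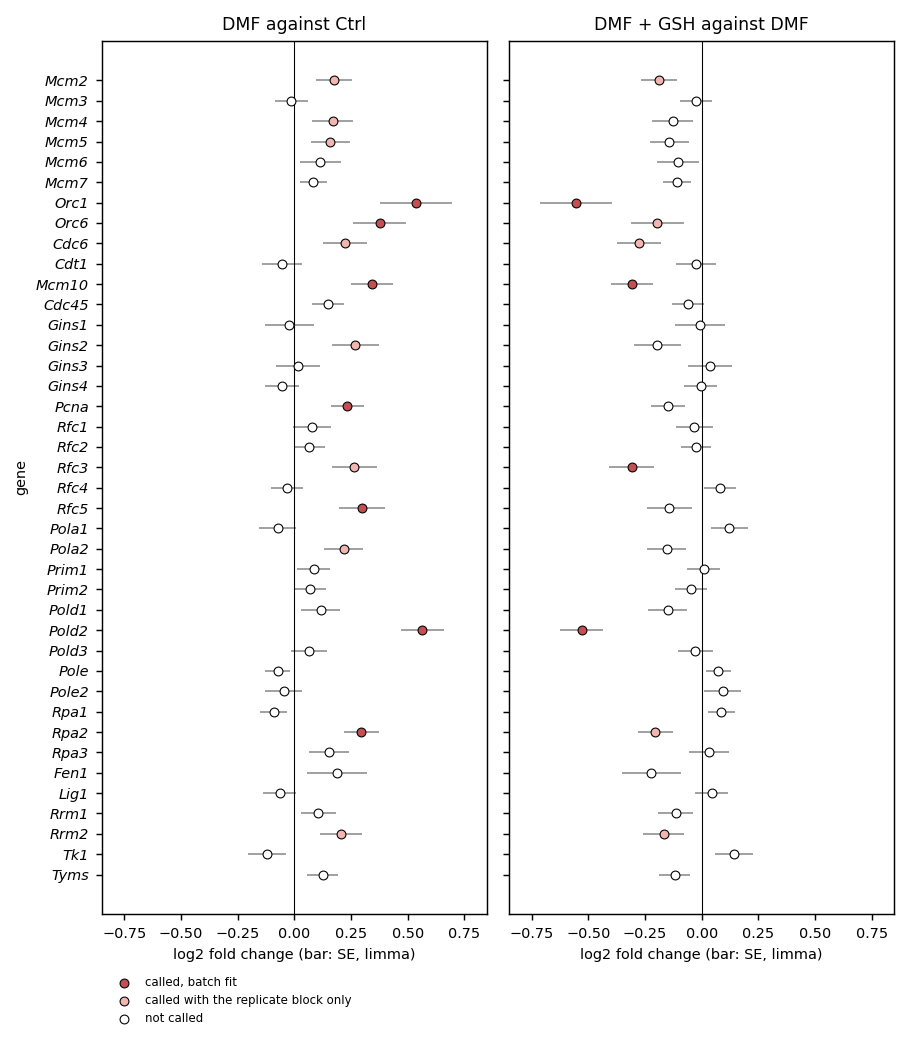
Log2 fold change of each member (points) with its SE (bars, limma, group and batch) for DMF against Ctrl and for DMF + GSH against DMF. Dark points were called at an adjusted p under 0.05, pale points with the replicate block only and open points in neither fit, and the comparisons share the DMF libraries.

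The second comparison asks whether added glutathione alters what is seen with DMF. It shares the DMF libraries with the first, so that an unusual DMF library moves both. Pold2, Orc1, Mcm10 and Rfc3 were lower with DMF + GSH than with DMF alone, and 0 members were higher. Of all genes, 12.4% were called lower and 9.99% higher, and the 4 of 40 members called lower (10%) lie near that background. The median log2 fold change of the members was −0.11 (−0.04 with quantile normalization, −0.12 to −0.06 without 1 library), with 10 of 40 above 0 against 49.8% of all genes. It was −0.09, −0.14 and −0.02 within replicates 1, 2 and 3, and −0.08 in batch 2. Under the block 9 members were called lower, with Mcm2, Orc6, Cdc6, Rpa2 and Rrm2 beside the 4, and 0 higher, against 21.6% and 19.9% of all genes. Groups did not overlap for 12 members that were lower and 1 that was higher, Pole, against 20.5% and 17.8% of all genes.

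For Pold2 the difference between DMF + GSH and DMF was −0.53 ± 0.10 (SE, limma, p adj = 0.0112), and the values given above show no overlap. For Orc1 it was −0.55 ± 0.16 (SE, limma, p adj = 0.0345) and for Mcm10 −0.31 ± 0.09 (SE, limma, p adj = 0.0427), again with all DMF + GSH libraries below all DMF libraries. For Rfc3 it was −0.31 ± 0.10 (SE, limma, p adj = 0.0496), with the lowest value in DMF + GSH replicate 2. Of the genes that rose with DMF, Orc6, Rfc5, Rpa2 and Pcna were not called here, with −0.20 ± 0.12 (SE, limma, p adj = 0.242), −0.14 ± 0.10 (SE, limma, p adj = 0.321), −0.21 ± 0.08 (SE, limma, p adj = 0.0822) and −0.15 ± 0.07 (SE, limma, p adj = 0.166). The largest difference upwards was that of Tk1, 0.14 ± 0.08 (SE, limma, p adj = 0.231). Here too single libraries moved the count over all genes. With Ctrl replicate 1 or 3 left out, 1 and 5 members were called lower, against 8.35% and 14.1% of all genes. None was called with DMF replicate 1 or 3 or DMF + GSH replicate 1 or 2 left out, where 0.0604%, 0.431%, 0.0431% and 0.647% of all genes were called lower, and 6 were called without DMF + GSH replicate 3, against 14.2%. With the block the number was 5 to 14 when each library was left out, against 16.2% to 21.9% of all genes. With all libraries, no minimum, quantile normalization or a fit of the 6 libraries compared ended the calls of Mcm10 (p adj up to 0.0621) and Rfc3 (up to 0.0723), and that of Rfc3 was also lost without the batch term (p adj = 0.055) and with edgeR (p adj = 0.0517).

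No member was called between DMF + GSH and Ctrl. This comparison shares the Ctrl libraries with the first and the DMF + GSH libraries with the second. limma called 0 of the 40 genes and 0% of all genes in either direction, 0 members had an unadjusted p under 0.05 (222 of all genes did), and edgeR and DESeq2 called 0 members. With the block it was again 0 members, against 0.00862% of all genes higher and 0.0259% lower. Groups did not overlap for 2 members that were higher and 0 that were lower with DMF + GSH, against 2.08% and 2.39% of all genes, and the log2 fold change was above 0 for 26 members, against 49.7% of all genes. The median log2 fold change of the members was 0.03. Dropping Ctrl replicate 3 or 2 gave 0.07 or −0.03, and dropping DMF + GSH replicate 2 or 3 gave 0.06 or −0.01. The largest values were 0.18 ± 0.09 (SE) for Rpa3, 0.18 ± 0.12 (SE) for Orc6 and 0.16 ± 0.10 (SE) for Rfc5, and those of Pold2 and Orc1 were 0.04 ± 0.10 (SE) and −0.02 ± 0.16 (SE).

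Among 49 other genes of replication, which cover further origin, fork, nucleotide and chromatin assembly factors, 12 rose with DMF (24.5%) and 2 fell (4.08%), against 14.6% and 13.3% of all genes. The median log2 fold change was 0.11, close to that of the members. The 4 largest rises were in genes that make nucleotides, namely Shmt1 (0.89 ± 0.14 (SE, limma, p adj = 0.00559)), which feeds one-carbon units to thymidylate, Cad (0.68 ± 0.16 (SE, limma, p adj = 0.0149)) and Umps (0.57 ± 0.12 (SE, limma, p adj = 0.00993)) of pyrimidine synthesis, and Ctps (0.62 ± 0.12 (SE, limma, p adj = 0.00877)), which makes CTP. Samhd1, which breaks down deoxynucleotides, fell (−0.76 ± 0.17 (SE, limma, p adj = 0.0116)), as did Ctc1, of the complex that works at telomere ends (−0.33 ± 0.08 (SE, limma, p adj = 0.018)). Samhd1 measured 11635, 11535 and 8309 normalized counts under Ctrl (replicates 1, 2 and 3), against 5993, 7206 and 5358 under DMF and 11137, 11126 and 7975 under DMF + GSH. Replicate 3 was low in Ctrl and in DMF + GSH, but DMF lay below both groups. With the block the counts were 22 higher and 5 lower, against 23.7% and 21.4% of all genes. The number called higher was 2, 4, 0 and 4 without Ctrl replicate 1, Ctrl replicate 2, DMF replicate 1 and DMF replicate 3, with 0 called lower, where 2.85%, 5.25%, 0.362% and 4.01% of all genes were higher and 2.57%, 4.77%, 0.586% and 4.21% lower. When Ctrl replicate 3 was left out, 17 were higher and 3 lower, against 17.2% and 15.5% of all genes. With GSH added to DMF, 9 of the 49 were lower and 2 higher, against 12.4% and 9.99% of all genes. Without Ctrl replicate 3 these were 12 and 2, against 14.1% and 11.8% of all genes. Without DMF replicate 1, DMF replicate 3, DMF + GSH replicate 1 or DMF + GSH replicate 2, 0 or 1 were lower. Of all genes, 0.0604%, 0.431%, 0.0431% and 0.647% were called lower in these fits.

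Genes that control the passage from G1 to S phase moved in both directions. Of 27 tested, 8 rose (29.6%) and 7 fell (25.9%) with DMF, against 14.6% and 13.3% of all genes, and 12 rose and 9 fell with the block, against 23.7% and 21.4%. The rises were led by Cdkn1a, the inhibitor p21 (0.90 ± 0.30 (SE, limma, p adj = 0.047)), cyclin D2 (Ccnd2, 0.54 ± 0.09 (SE, limma, p adj = 0.0064)), the phosphatase Cdc25a (0.44 ± 0.14 (SE, limma, p adj = 0.038)) and the E2F partner Tfdp1 (0.35 ± 0.10 (SE, limma, p adj = 0.0286)). Cdkn1a measured 247, 238 and 452 normalized counts under Ctrl (replicates 1, 2 and 3), against 642, 436 and 624 under DMF and 223, 212 and 410.3 under DMF + GSH. Replicate 3 was the highest in Ctrl and in DMF + GSH, and Ctrl replicate 3 exceeded DMF replicate 2. The Cdkn1a call was lost in 5 of the 9 fits without 1 library (limma, p adj up to 0.235) and in 2 of 12 other settings with all libraries. Without 1 library, the call of Cdc25a was lost in 5 fits, that of Tfdp1 in 4 and that of Ccnd2 in 1. With the block, these 4 genes were called in all 9 such fits. The falls were led by the inhibitors Cdkn2d (−0.92 ± 0.21 (SE, limma, p adj = 0.0126)) and Cdkn1b, which encodes p27 (−0.87 ± 0.17 (SE, limma, p adj = 0.00785)), by E2f2 (−0.67 ± 0.13 (SE, limma, p adj = 0.00849)) and by Rbl2, a pocket protein that holds E2F in check (−0.55 ± 0.11 (SE, limma, p adj = 0.00909)). Cdkn1b measured 1831, 2205 and 1446 normalized counts under Ctrl (replicates 1, 2 and 3), against 918, 1175 and 877 under DMF and 1768, 1823 and 1419.6 under DMF + GSH. All DMF libraries lay below all others. The Cdkn1b call was lost in 2 of the 9 fits without 1 library (limma, p adj up to 0.065) and in none of the 9 with the block as well. E2f1 rose (0.29 ± 0.09 (SE, limma, p adj = 0.0377)), while the cyclins Ccne1 and Ccne2 were not called in the fit with batch, with 0.22 ± 0.08 (SE, limma, p adj = 0.0541) and 0.31 ± 0.15 (SE, limma, p adj = 0.137). The E2f1 call was lost in 6 of the 9 fits without 1 library (limma, p adj up to 0.168). With the block, E2f1 was called in all 9 such fits, Ccne1 in 7 and Ccne2 in 8, each as higher. Of 12 other settings with all libraries, E2f1 was called in 9, and Ccne1 and Ccne2 in 2 each. The number called higher was 1, 1, 0, 1 and 4 without Ctrl replicate 1, Ctrl replicate 2, DMF replicate 1, DMF replicate 3 and DMF + GSH replicate 1, against 2.85%, 5.25%, 0.362%, 4.01% and 12.4% of all genes. Without Ctrl replicate 1 or DMF replicate 1, 1 was called lower, against 2.57% and 0.586%. Leaving out Ctrl replicate 3 gave 11 higher and 7 lower, against 17.2% and 15.5%.

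Of 30 genes of G2 phase and mitosis, 16 fell with DMF and 0 rose, against 13.3% and 14.6% of all genes, with a median log2 fold change of −0.27. The count was 22 with the block, against 21.4% of all genes, 7, 10 or 16 with Ctrl replicate 1, 2 or 3 left out, and 9 or 0 with DMF replicate 3 or 1 left out. Of all genes, 2.57%, 4.77%, 15.5%, 4.21% and 0.586% were called lower in these fits. The largest falls were those of the phosphatase Cdc25b (−0.85 ± 0.16 (SE, limma, p adj = 0.00737)), the spindle protein Nusap1 (−0.62 ± 0.11 (SE, limma, p adj = 0.00722)), cyclin B2 (Ccnb2, −0.53 ± 0.09 (SE, limma, p adj = 0.00649)) and the kinetochore protein Cenpf (−0.51 ± 0.08 (SE, limma, p adj = 0.00543)). Mki67, which encodes the proliferation marker Ki-67, fell (−0.49 ± 0.09 (SE, limma, p adj = 0.0065)), and Ccnb1, cyclin B1, was not called in the fit with batch (−0.21 ± 0.08 (SE, limma, p adj = 0.0682)). Ccnb1 was called lower in 3 of 12 other settings with all libraries, and in 6 of 9 fits with the block and 1 library left out. With DMF + GSH against DMF, 16 of the 30 were called higher and 0 lower, against 9.99% and 12.4% of all genes. With Ctrl replicate 3 left out these were 18 and 0, against 11.8% and 14.1%. Without DMF replicate 1, DMF replicate 3, DMF + GSH replicate 1 or DMF + GSH replicate 2, 0 to 2 were higher. Of all genes, 0.069%, 0.491%, 0.0431% and 0.586% were called higher in these 4 fits. The mean log2 level of the 40 replication genes minus that of the 30 G2/M genes was −0.40, −0.50 and −0.31 under Ctrl (replicates 1, 2 and 3), against −0.01, −0.04 and 0.04 under DMF and −0.41, −0.45 and −0.23 under DMF + GSH. The DMF libraries thus lay above all other libraries in this difference, and the other groups overlapped. The G2/M mean moved the more, with 11.02, 11.04 and 11.02 under Ctrl (replicates 1, 2 and 3) and 10.72, 10.80 and 10.73 under DMF. The replication mean was 10.62, 10.54 and 10.705 under Ctrl and 10.71, 10.76 and 10.77 under DMF.

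**Figure D4:**
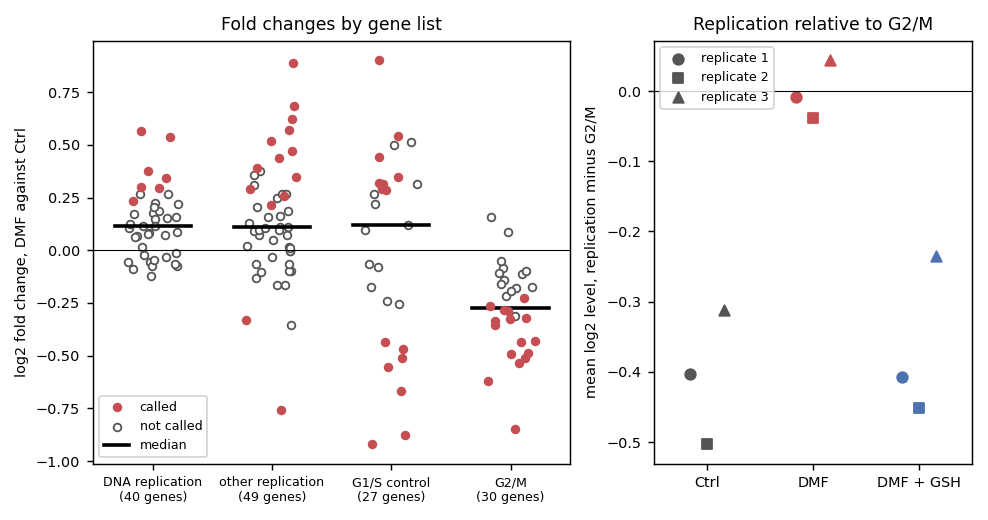
Left, log2 fold change of DMF against Ctrl for each gene of 4 lists (filled if called at an adjusted p under 0.05, bar at the median). Right, mean log2 level of the replication genes minus that of the G2/M genes in each library, which lies between −0.04 and 0.04 in the DMF libraries and at −0.23 or below in the others.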

How the data were processed

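Poly(A) RNA was sequenced by the authors as single reads of 9 libraries, aligned with STAR (2.4.0b in the submitters' processing notes) to GRCm38 and counted per gene with featureCounts. The deposited signal is a normalized count, which the authors made by dividing each count by a size factor per library with DESeq2. The deposited table also holds the authors' comparison of Ctrl with DMF (a log2 fold change, a test statistic or score, a p-value and its adjusted value), which was not used. Whole reads were recovered from 100% of the values above 0 (tolerance 0.01). Total reads for replicates 1, 2 and 3 were 10401056, 11589246 and 7671772 under Ctrl, against 10382638, 12669991 and 11572657 under DMF and 9753478, 14511926 and 11152111 under DMF + GSH. No other column of per-sample values was left unmapped.

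Log2(normalized count + 1) was fitted for 11599 genes (mean of at least 10) with limma-trend (limma 3.58.1, R 4.3.3), with group and batch in the model and all 9 libraries sharing 1 estimate of the spread. Genes were called at a Benjamini-Hochberg adjusted p (p adj) under 0.05 over all genes tested. Fold changes on this scale understate the change of low genes. The fit was tested on simulated data. Alternatives were a block for replicate number, which replaced batch, each library left out (with and without that block), the 6 libraries compared alone, no batch term, quantile normalization or TMM rescaling, a minimum of 50 or none, pseudocounts of 4 or 0.5, and edgeR 4.0.16 and DESeq2 1.42.0 on recovered reads. After subtraction of group means, libraries of different groups with the same replicate number, which comes from the labels, had correlations over genes of 0.447 to 0.578 (9 pairs), and those with different numbers of −0.471 to −0.0621.

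The members and the lists of other genes and markers were chosen with earlier results of these data known. All 40 members are named. Values per library are given for members called in either comparison or under the block and for the most abundant member of each role per kb, and fold changes for up to 4 called genes per direction of each other list with the largest change, beside Cdkn1a, Cdkn1b, Ccne1, Ccne2, E2f1, Mki67 and Ccnb1. Values per library of Pole, Samhd1, Cdkn1a and Cdkn1b, and the values of Pold4, were added after they were seen. Positions and exon lengths come from GENCODE vM21 (GRCm38), promoters from RefSeq (GRCm38.p6). Figures used Matplotlib 3.10.9 under Python 3.11.15, and tables NumPy 2.4.6 and pandas 2.3.3.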

Additional observations from a re-analysis of the deposited data

How the results depend on the processing

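The members called higher with DMF numbered 15 with the replicate block, with limma and with edgeR, and 5 to 7 under the other 10 settings with all libraries, against 23.7% and 23.5% of all genes with the block and 5.33% (no minimum, 26629 genes) to 17.4% (a minimum of 50) under the others. They numbered 0 to 10 when each library was left out in turn, with 0 without DMF replicate 1 and 10 without Ctrl replicate 3, against 0.362% and 17.2% of all genes. With the replicate block as well they numbered 8 to 18, against 18.5% to 25%. These were 16 without Ctrl replicate 3 or DMF + GSH replicate 1, against 20.7% and 25%, and 12 without DMF replicate 1, against 18.5%. Members called lower numbered 0 throughout, and the median log2 fold change ran from 0.07 to 0.17 without 1 library and from 0.09 to 0.15 with the block. With DMF + GSH against DMF, the members called lower numbered 9 with the block and 10 with edgeR and the block, against 21.6% and 21.3% of all genes. They numbered 2 with no minimum, 2 with quantile normalization and 2 with only the 6 libraries compared, against 4.38%, 11.3% and 10.9% of all genes, where the cause was not tested. Without 1 library they numbered 0 to 6, against 0.0431% to 14.2% of all genes, and 5 to 14 with the block, against 16.2% to 21.9%. With the block they were 12 without Ctrl replicate 1 and 11 without DMF replicate 1, against 21.9% and 16.2%. Members called higher numbered 0 without 1 library, and 0 to 1 with the block. The median was −0.04 with quantile normalization (−0.0380), from −0.12 to −0.06 without 1 library and from −0.14 to −0.06 with the block. With DMF + GSH against Ctrl, 0 members were called in either direction under every setting, and the median ran from −0.0302 without Ctrl replicate 2 to 0.0688 without Ctrl replicate 3 and from 0.00378 to 0.0375 with the block. No called member changed direction. Calls were not tested at other depths, and Fen1 rests on 127 reads in its lowest library.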
